A study of Mus musculus with 9 samples.

Results

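The genes Fos, Fosb, Fosl1, Fosl2, Jun, Junb and Jund encode the FOS and JUN subunits of AP-1 in normal mouse mammary fibroblasts grown with or without carcinoma cells. They were taken by gene name, and all 7 were among the 11931 genes of the deposited normalised counts. AP-1 is a transcription factor that forms as a pair of basic leucine zipper proteins. JUN proteins pair with each other or with a FOS protein, whereas FOS proteins need a JUN partner to bind DNA. Fos, Fosb, Jun and Junb are classic immediate early genes, switched on within minutes by serum, growth factors or stress and shut off soon after. FOSL1 (FRA-1) and FOSL2 (FRA-2) lack the strong C-terminal activation domain of FOS and FOSB. JUNB and JUND can oppose JUN at some promoters, and AP-1 in fibroblasts is known for driving proteases and other wound-response genes.

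Fibroblasts came from mammary fat pads of female BALB/c mice aged 12 weeks and recovered on collagen for 1 week. The groups were 3-day co-culture with 4T1-GFP cells, 5-day co-culture with 4T1-GFP cells, and monoculture for 5 days, with 3 libraries each. 4T1 is a mammary carcinoma line of BALB/c origin, here marked with green fluorescent protein (GFP). In co-culture 100000 carcinoma cells were added to 300000 fibroblasts 24 hours after plating in medium with 10% serum, and cells of all groups were sorted as GFP-negative and podoplanin-positive before RNA was made into 3′ end libraries. No monoculture was sampled at 3 days, so at 3 days co-culture and time cannot be told apart. Nothing in the labels says whether replicates were separate animals or cultures, so p-values measure the spread between these libraries, which may be technical.

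Whole reads recovered from the values numbered 1048471 to 2579766 per library in 3-day co-culture, 1459381 to 1987168 in 5-day co-culture and 2623911 to 3567326 in monoculture. All 7 subunits passed the filter on low values in every group, with 45 to 3713 reads per library behind each value. The column taken as 5-day co-culture replicate 2 names no carcinoma cells and was placed by exclusion. All 5-day means include it. Where calls printed here for subunits, gene lists or named list genes change without it, this is given with the result. The fibroblast markers Col1a1 and Col1a2 were high in all groups, and the 12 listed fibroblast markers summed to 44399 to 55637 normalised counts per library in 3-day co-culture, 39564 to 53754 in 5-day co-culture and 46227 to 63829 in monoculture. Col1a1 and Col1a2 had the highest means of the 12, so these sums say little of the others. By limma 5 of the 12 fell at 3 days, and 1 rose and 6 fell at 5 days (1 and 7 without 5-day replicate 2). Pdgfra, chosen after its values were seen, averaged 51.7 at 3 days and 21.0 at 5 days, against 189.3 in monoculture. Col3a1, chosen likewise, averaged 3407 and 1870, against 7303. Of all tested genes 9.37% fell at 3 days, and 12.6% rose and 11.4% fell at 5 days.

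The 150 bases before the annotated start are shown for Fos, Fosb and Junb, which were lower in co-culture, and for Jun, which was higher. They are RefSeq sequences on GRCm38.p6, and capitals mark TGACG (a core of the cyclic AMP response element), TGACATCA or TATAAA.
Fos, chr12:85473740-85473889, plus strand: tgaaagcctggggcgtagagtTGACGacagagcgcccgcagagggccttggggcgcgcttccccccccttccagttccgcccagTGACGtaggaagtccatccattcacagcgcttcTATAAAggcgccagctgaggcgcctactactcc
Fosb, chr7:19310046-19310195, minus strand: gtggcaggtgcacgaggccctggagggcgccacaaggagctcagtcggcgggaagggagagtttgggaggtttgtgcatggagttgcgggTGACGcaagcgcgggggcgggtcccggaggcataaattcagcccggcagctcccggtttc
Junb, chr8:84978749-84978898, minus strand: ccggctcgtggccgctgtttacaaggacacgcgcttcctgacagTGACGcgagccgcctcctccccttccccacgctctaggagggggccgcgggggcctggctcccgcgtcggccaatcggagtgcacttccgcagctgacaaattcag
Jun, chr4:95052223-95052372, minus strand: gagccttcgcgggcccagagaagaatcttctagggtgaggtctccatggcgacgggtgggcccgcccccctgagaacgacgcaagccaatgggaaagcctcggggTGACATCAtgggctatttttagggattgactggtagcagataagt
Windows were found for 6 of the 7 subunits. Within 250 bases before the start, on both strands, TGACG occurred in Fos (first bases at -129 and -66), Fosb (-60) and Junb (-106), all on the gene's own strand. It was found in 17.8% of 32851 RefSeq promoter windows of the same length. Jun held TGACATCA at -45, a sequence in 2.93% of windows that is known from the human JUN promoter as a site for JUN paired with ATF2. The full sites TGACTCA (4.46% of windows) and TGACGTCA (1.55%) and the CArG box (1.47%) matched in none of the 6 within these 250 bases. Bases farther upstream were not searched, so a site there, for Fos as for the others, would be missed. Jund and Fosl2 held neither TGACG nor TGACATCA. The RefSeq starts of Jund and Fosl2 lie well away from those of the gene positions given below, so their windows may lie away from the start in use. TGACG is contained in TGACGTCA, so those counts overlap, and these matches are descriptions of letters, not of binding.

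Fos, Fosb, Fosl2 and Junb were lower in both co-culture groups than in monoculture, Fosl1 and Jun were higher, and Jund did not differ beyond the spread between replicates. By limma over 10639 tested genes, 4 subunits were lower and 2 higher after 3 days, against a background of 9.37% of all genes called lower and 10.6% called higher, 20.0% in all. After 5 days 4 were lower and 2 higher, against 11.4% and 12.6%, 24.0% in all. The 4 lower calls at 5 days held under each alternative tried, but the number called higher dropped to 0 without any 1 of the 5-day libraries or monoculture replicate 1 or 2, and to 1 under 3 rescalings, edgeR or without 3-day replicate 2. All 6 subunits called at each time were also free of overlap between co-culture and monoculture libraries, as were 37.4% of tested genes at 3 days (19.2% higher, 18.1% lower) and 40.9% at 5 days (20.8% higher, 20.1% lower). The exact two-sided permutation p of each of these was 0.1, the smallest that 3 against 3 libraries allow. Both comparisons used the same monoculture libraries. In such bulk libraries fewer cells of a type and less RNA per cell cannot be told apart.

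**Figure D1:**
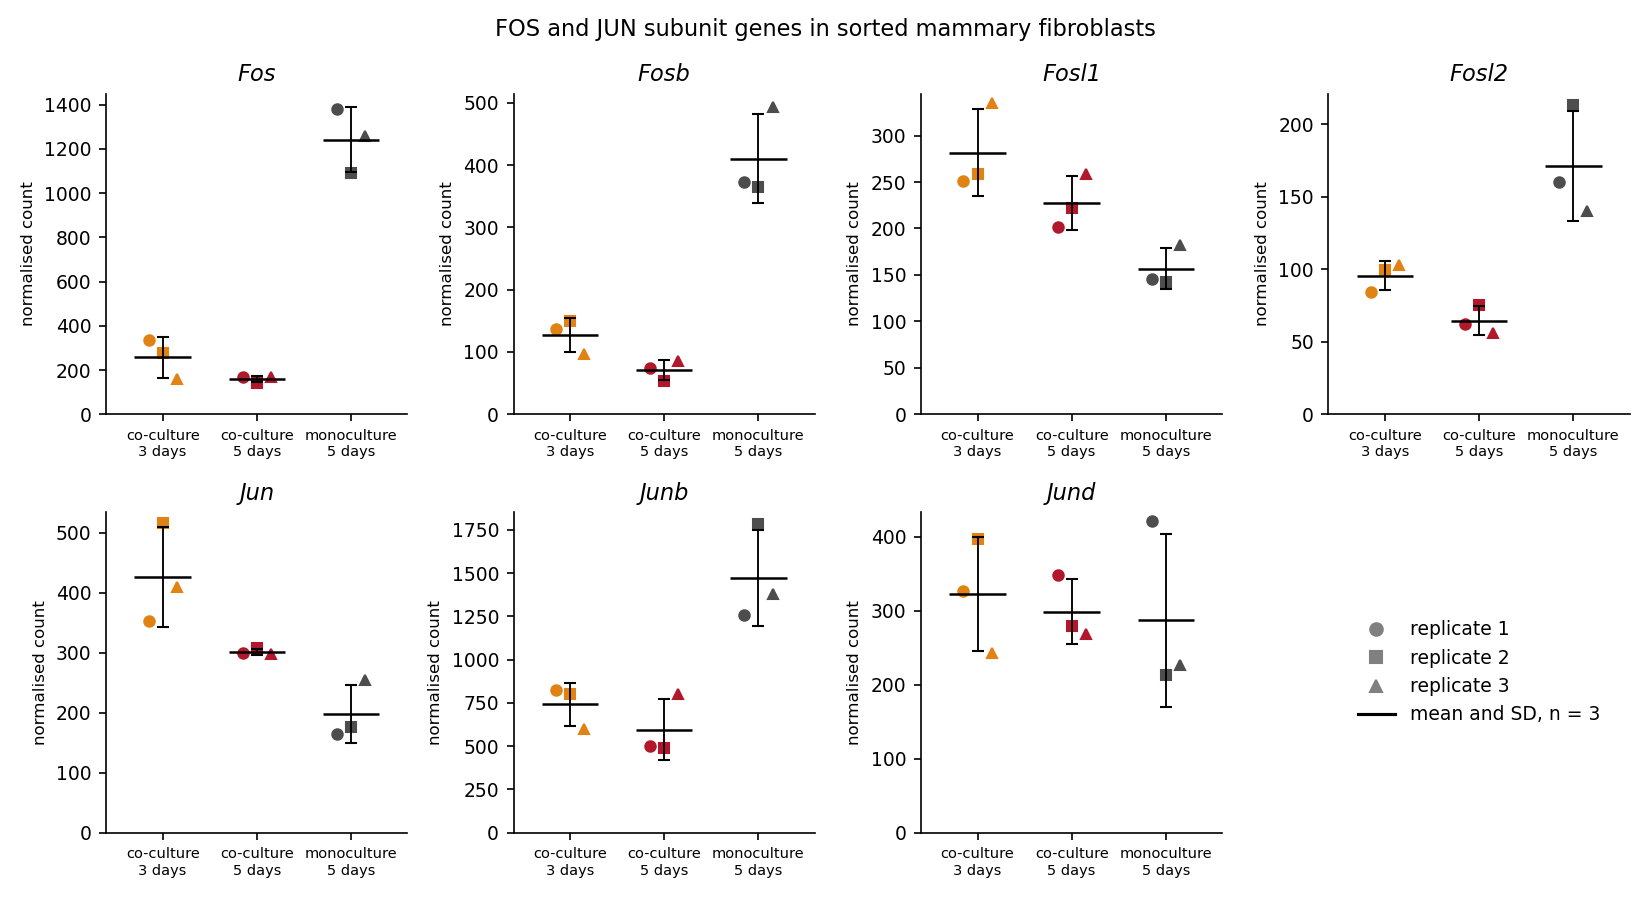
Normalised counts (linear y axis from 0) of each subunit gene in the 3 co-culture libraries at 3 days, the 3 at 5 days and the 3 monocultures. Points are libraries, lines are means and bars are SD (n = 3); every co-culture point lies below the monocultures for Fos, Fosb, Fosl2 and Junb and above them for Fosl1 and Jun, while the groups overlap for Jund.

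Fos (chromosome 12, 85473890 to 85477273, plus strand, mm10, protein-coding) encodes the founding member of the FOS family. It had 337.1, 279.1 and 157.2 normalised counts in 3-day co-culture and 166.2, 142.5 and 169.8 in 5-day co-culture, against 1379.5, 1088.3 and 1256.5 in monoculture. All co-culture libraries stood far below all monocultures, and 3-day replicate 3 was the lowest of its group, at the level of the 5-day libraries. Against monoculture the log2 fold change in 3-day co-culture was -2.33 ± 0.23 (SE), its 95% interval reaching from -2.82 to -1.83 (limma adjusted p = 3.58e-06). In 5-day co-culture it was -2.95 ± 0.23 (-3.44 to -2.46), with a limma adjusted p of 1.83e-07. On a linear scale Fos was 5.02-fold lower at 3 days and 7.73-fold lower at 5 days. It was the largest change of any subunit.

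Fosb (chromosome 7, 19302696 to 19310051, minus strand) encodes the closest relative of FOS. Its normalised counts were 136.2, 149.7 and 97.4 in 3-day co-culture and 74.6, 53.1 and 84.9 in 5-day co-culture, against 373.2, 365.3 and 493.0 in monoculture. The 3 groups did not overlap at all, with 5-day co-culture lowest. Its log2 fold change was -1.69 ± 0.22 at 3 days (limma adjusted p = 6.54e-05) and -2.53 ± 0.22 at 5 days (limma adjusted p = 6.12e-07), or 3.22-fold and 5.78-fold lower.

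Fosl2 (chromosome 5, 32135801 to 32157842, plus strand) encodes FRA-2, which in fibroblasts is known as a slower and longer-lasting response gene. It had 84.7, 99.5 and 103.0 normalised counts in 3-day co-culture and 62.0, 75.4 and 56.2 in 5-day co-culture, against 160.3, 213.4 and 140.1 in monoculture. The groups again did not overlap, although monoculture replicate 2 stood well above the other monocultures. The fall was smaller than that of Fos and Fosb, with a log2 fold change of -0.82 ± 0.21 at 3 days (limma adjusted p = 0.0114) and -1.38 ± 0.21 at 5 days (limma adjusted p = 0.000154). Without monoculture replicate 2 the 3-day call was lost (-0.65, limma adjusted p = 0.0754), and it was held under the other 19 alternatives.

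Fosl1 (chromosome 19, 5447547 to 5455946, plus strand) encodes FRA-1, whose gene is itself an AP-1 target and which is often high in mesenchymal and carcinoma cells. It ran against the rest of its family, with 250.8, 258.3 and 335.3 normalised counts in 3-day co-culture and 201.3, 221.7 and 258.4 in 5-day co-culture, against 145.4, 142.3 and 181.9 in monoculture. Every co-culture library was above every monoculture, and the gap at 5 days was narrow, with 201.3 as the lowest co-culture value and 181.9 as the highest monoculture value. In 3-day co-culture it rose 1.79-fold, a log2 fold change of 0.84 ± 0.19 with a 95% interval of 0.44 to 1.24 (limma adjusted p = 0.00466). The 5-day value was 0.54 ± 0.19 (95% interval 0.14 to 0.93) with a limma adjusted p of 0.0484, and this call was lost under 10 of 20 alternatives, among them edgeR's quasi-likelihood test on the recovered reads (0.52, adjusted p = 0.0552) and leaving out 5-day replicate 2 (0.55, limma adjusted p = 0.0985). Fosl1 shares 2767 bases, its 3′ end included, with Ccdc85b on the opposite strand, which was not analysed here, and the strand setting of the counting is not given in the sources used here.

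Jun (chromosome 4, 95049034 to 95052222, minus strand) encodes the strongest activator among the JUN proteins, and its promoter is known to be activated by its own product. It had 352.0, 515.8 and 409.0 normalised counts in 3-day co-culture and 299.2, 307.4 and 297.1 in 5-day co-culture, against 164.0, 175.4 and 253.9 in monoculture. Co-culture and monoculture did not overlap, and the 5-day libraries lay close together (SD 5.44) while monoculture replicate 3 reached nearer to them than the other monocultures. Jun shares 689 bases with Junos, an antisense gene that was not analysed here. In 3-day co-culture it rose 2.16-fold, a log2 fold change of 1.11 ± 0.20 with a 95% interval of 0.69 to 1.53 (limma adjusted p = 0.000883). The 5-day value was 0.63 ± 0.20, its interval reaching from 0.21 to 1.05 (limma adjusted p = 0.0295). The 5-day call was lost when any 1 of the 5-day libraries was left out (adjusted p = 0.0684, 0.0802 and 0.0626 without replicates 1, 2 and 3), or monoculture replicate 1 (0.122) or 2 (0.101), with limma in each case. Without 5-day replicate 2, then, neither Jun nor Fosl1 passed at 5 days, while the 4 subunits that fell all passed.

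Junb (chromosome 8, 84974484 to 84978718, minus strand) encodes a JUN protein that activates weakly and can restrain JUN. Its normalised counts were 827.0, 801.9 and 601.0 in 3-day co-culture and 502.3, 488.0 and 799.0 in 5-day co-culture, against 1256.4, 1784.8 and 1379.3 in monoculture. All 6 co-culture libraries were below all 3 monocultures, but 5-day replicate 3 stood with the 3-day libraries. The log2 fold change was -0.98 ± 0.22 at 3 days (limma adjusted p = 0.00412) and -1.33 ± 0.22 at 5 days (limma adjusted p = 0.000298), or 1.98-fold and 2.51-fold lower. The 3′ ends of Junb and Prdx2, a peroxiredoxin gene on the opposite strand, overlap by 351 bases. Prdx2 averaged 677.5 ± 92.9 in 3-day co-culture and 638.3 ± 33.8 in 5-day co-culture, against 565.6 ± 15.4 in monoculture (SD, n = 3 each), so its means were higher in both co-cultures, while those of Junb were lower.

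Jund (chromosome 8, 70698949 to 70700616, plus strand) encodes the JUN protein known to be present in resting cells and to vary least on stimulation. It had 327.1, 397.5 and 243.5 normalised counts in 3-day co-culture and 348.6, 279.4 and 268.4 in 5-day co-culture, against 420.9, 213.4 and 226.2 in monoculture. The groups overlapped, and monoculture replicate 1 was the highest of all 9 libraries. Jund shares 919 bases with the antisense gene Gm11175, not analysed here. Its log2 fold change was 0.21 at 3 days with a 95% interval of -0.32 to 0.74 (limma adjusted p = 0.6). At 5 days it was 0.12 with an interval of -0.41 to 0.65 (limma adjusted p = 0.779). The two-sided permutation test, exact over the libraries, gave 0.6 for the 3-day and 0.7 for the 5-day comparison. A change within about these intervals cannot be told from none here. The sign at 5 days turned without monoculture replicate 2 (-0.06) or replicate 3 (-0.01).

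**Figure D2:**
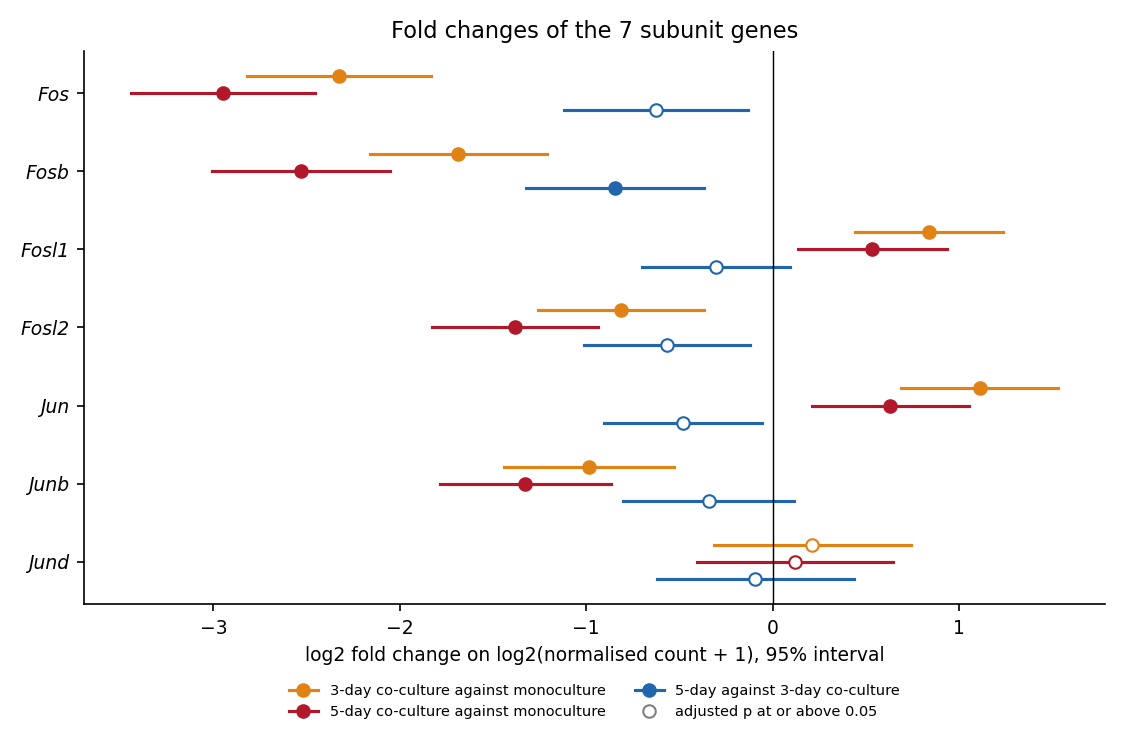
Log2 fold changes of the 7 subunit genes (x axis, on the log2(normalised count + 1) scale) with 95% intervals in the 3 comparisons; filled points passed limma at an adjusted p under 0.05. Fos and Fosb lie farthest to the left, Fosl1 and Jun lie to the right of 0 against monoculture, and the intervals of Jund span 0.

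Within each family a subunit that rose was set against a subunit that fell in the same library, as the log2 ratio of their normalised counts. Levels of different genes are not compared, only how the ratio moves between groups. For Fosl1 to Fos the ratio was -0.43, -0.11 and 1.09 in 3-day co-culture and 0.27, 0.63 and 0.60 in 5-day co-culture, against -3.24, -2.93 and -2.78 in monoculture. The mean ratio was thus 3.17 log2 units higher at 3 days and 3.49 higher at 5 days than in monoculture, and no co-culture library came near the monocultures. The Jun to Junb ratio, a pair chosen after the values were seen, was -1.23, -0.64 and -0.55 in 3-day co-culture and -0.75, -0.67 and -1.42 in 5-day co-culture, against -2.93, -3.34 and -2.44 in monoculture. It too was higher in every co-culture library. Fosl1 and Jun were above, and Fos and Junb below, every monoculture in all co-culture libraries. The choice of pairs thus fixed this separation in advance, and it is no further result. Since the pairs were picked with results known, no test is given for them.

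**Figure D3:**
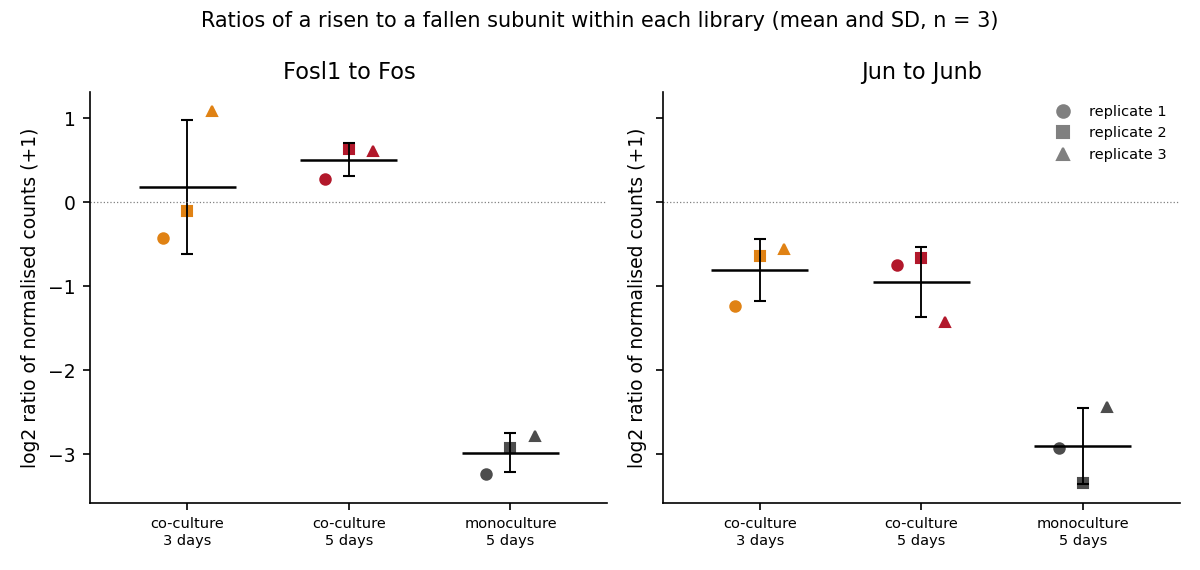
Log2 ratio of Fosl1 to Fos and of Jun to Junb in each library (y axis, normalised counts + 1), with group means and SD (n = 3). Both ratios lie higher in all 6 co-culture libraries than in the 3 monocultures, which the choice of a risen and a fallen subunit fixed in advance. The highest Fosl1 to Fos ratio, 1.09, is that of 3-day replicate 3.

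Between the co-cultures, 1 of 7 subunits passed, Fosb, which was lower at 5 days than at 3 days, against a background of 6.91% of genes called (3.71% lower, 3.2% higher). Its log2 fold change was -0.84 ± 0.22 (95% interval -1.32 to -0.37, limma adjusted p = 0.033). That call was lost without 3-day replicate 1 (adjusted p = 0.0916) or 2 (0.144) and without 5-day replicate 1 (0.0693) or 2 (0.134), with limma in each case. All 7 subunits had a negative log2 fold change, from -0.09 for Jund to -0.84 for Fosb, beside a median of -0.01 over all tested genes. Fosb, Fosl2 and Jun had 5-day libraries that were all below the 3-day libraries, as did 12.9% of tested genes, with 11.7% all above and 24.6% free of overlap in either direction. For Fos the log2 fold change was -0.62 (95% interval -1.12 to -0.13, limma adjusted p = 0.12), and it passed when 3-day replicate 3, the library with the lowest Fos of its group, was left out (-0.94, adjusted p = 0.00848). Fosl1 (-0.30, adjusted p = 0.365) and Jun (-0.48, adjusted p = 0.163) did not pass, so a lower level at 5 than at 3 days was not established for the 2 subunits that rose.

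The subunits differed in how evenly they behaved within groups. In 3-day co-culture, replicate 3 had the lowest Fos, Fosb, Junb and Jund of the 3 libraries and the highest Fosl1 and Fosl2. That library held 1268448 reads, against 1048471 and 2579766 for the other two. After the group means were taken off, Pearson r over the 9 libraries was 0.68 for Fos and Fosb, 0.40 for Fos and Junb and -0.54 for Fos and Fosl1. These relations did not follow the split into subunits that fell and rose: the strongest was negative and joined Fosb and Fosl2 (r = -0.72), which both fell, Fos and Fosl2 gave -0.55, Fos and Jund 0.60, and Fosb and Fosl1 0.002. These are descriptions over 9 libraries that differed in depth, from 1048471 to 3567326 reads. With the group means taken off few free values remain, so these r values establish no relation, and none was tested.

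Some other basic leucine zipper proteins can pair with FOS or JUN. In a list of possible partners, the 9 tested genes were Atf1, Atf2, Atf3, Atf4, Atf5, Atf6, Atf7, Jdp2 and Crem, with no BATF gene. Whether each pairs with a subunit was not tested. Of the 9, 2 rose and 1 fell at 3 days. At 5 days 1 rose and 3 fell. Of all tested genes 10.6% rose and 9.37% fell at 3 days, and 12.6% rose and 11.4% fell at 5 days. The median log2 fold change of the 9 was -0.13 and -0.35, beside 0.00 and -0.01 over all tested genes. Between 5 and 3 days 4 of the 9 fell, and 3 without 5-day replicate 2, against 3.71% of all tested genes. Atf3, a stress-induced partner of JUN, averaged 63.5 ± 8.9 normalised counts in 3-day co-culture and 19.2 ± 3.7 in 5-day co-culture, against 14.03 ± 4.12 in monoculture (SD, n = 3 each). It rose at 3 days (log2 fold change 2.13, limma adjusted p = 6.54e-05), did not pass at 5 days (0.44, adjusted p = 0.289) and was lower at 5 than at 3 days (-1.69, adjusted p = 0.00213). Atf4, the effector of the integrated stress response, rose to 2069 at 3 days and 1367 at 5 days, against 947.3 in monoculture. Without 5-day replicate 2 it did not pass at 5 days (log2 fold change 0.48, limma adjusted p = 0.102) or between the co-cultures (-0.64, limma adjusted p = 0.0761). Atf5, a relative of Atf4, fell to 1420 and 755.2, against 2131. Jdp2, which encodes a repressor that pairs with JUN, had 136.7 at 3 days and fell to 66.4 at 5 days, against 177.7 in monoculture (limma adjusted p = 0.24 and 0.000204). Mafk, a small MAF gene of a related zipper family, averaged 42.4 at 3 days (log2 fold change -0.77, limma adjusted p = 0.0951) and fell to 22.3 at 5 days (-1.65, limma adjusted p = 0.00105), against 72.9 in monoculture.

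Of 31 tested genes of the MAP kinase cascades that lead to AP-1, 3 rose and 4 fell at 3 days and 4 rose and 3 fell at 5 days (3 and 2 without 5-day replicate 2). These shares are near those of all tested genes, 20.0% and 24.0%, so the counts are no result about the kinases, and the median log2 fold changes were -0.14 and 0.22. Mapk3, which encodes ERK1, fell to 206.2 ± 48.9 in 3-day co-culture and 179.2 ± 29.0 in 5-day co-culture, against 320.1 ± 36.2 in monoculture (limma adjusted p = 0.0345 and 0.00747). Mapk13, which encodes p38 delta, rose to 75.2 and 76.9, against 35.8. Rps6ka1, which encodes the ERK-activated kinase RSK1, averaged 19.8 and 25.2, against 7.77, and rose at both times. Map3k14, which encodes the NF-kappaB-inducing kinase, fell to 15.9 at 3 days, against 37.6 in monoculture. Hras fell to 20.1 at 3 days, against 38.0 in monoculture, and was higher at 5 days (39.8) than at 3 days (log2 fold change 0.96, limma adjusted p = 0.0298), a call lost without 5-day replicate 2 (0.89, adjusted p = 0.101). A list drawn up around the Fos promoter had 9 tested genes: Srf, Elk1, Elk3, Mkl1, Mkl2, Mef2a, Mef2d, Stat3 and Ep300. Creb1 and Crebbp were listed but not among the deposited genes. Of the 9 tested, 2 fell at 3 days, and 1 rose and 1 fell at 5 days. This too is near the share of all genes, with median log2 fold changes of -0.06 and -0.08 beside 0.00 and -0.01. Srf, the serum response factor, averaged 41.0 ± 14.2 at 3 days and 73.9 ± 5.3 at 5 days, against 102.9 ± 16.8 in monoculture, with log2 fold changes of -1.35 at 3 days (limma adjusted p = 0.00132) and -0.46 at 5 days (limma adjusted p = 0.211). It was higher at 5 than at 3 days (0.89, limma adjusted p = 0.0444), but not past the threshold without 5-day replicate 2 (0.91, adjusted p = 0.099). Stat3, a signal transducer of the IL6 family that also acts on the Fos promoter, fell at both times, to 139.2 ± 22.2 and 134.8 ± 30.4, against 290.6 ± 5.6. Mkl1, which encodes an actin-regulated SRF cofactor, rose at 5 days to 315.8, against 180.2.

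Genes that limit FOS and JUN after transcription were also measured. Zfp36, which encodes tristetraprolin, a protein that speeds decay of AU-rich mRNAs such as that of Fos, fell to 100.1 ± 15.7 in 3-day co-culture and 63.4 ± 17.7 in 5-day co-culture, against 561.4 ± 76.4 in monoculture. Its log2 fold changes of -2.48 and -3.15 (limma adjusted p = 9.98e-07 and 4.75e-08) were in the range of those of Fos. Between 5 and 3 days Zfp36 did not pass (-0.675, limma adjusted p = 0.0744), but it did without 5-day replicate 2 (-0.88, limma adjusted p = 0.0352). Zfp36l1, a relative of Zfp36, fell at 5 days (log2 fold change -1.21, limma adjusted p = 0.000844) and was lower at 5 than at 3 days (-1.18, adjusted p = 0.00448). Elavl1, which encodes the mRNA-stabilising protein HuR, rose at 3 days to 31.5, against 17.2 in monoculture (log2 fold change 0.84, limma adjusted p = 0.0463). Trib2, a pseudokinase gene, fell at both times, to 29.1 and 20.5, against 74.9. Of the 10 tested genes of this list 1 rose and 3 fell at 3 days, and 1 rose and 4 fell at 5 days. Of all tested genes 10.6% rose and 9.37% fell at 3 days, and 12.6% rose and 11.4% fell at 5 days. The median log2 fold changes of the list were -0.30 and -0.83, beside 0.00 and -0.01 over all tested genes. Without 5-day replicate 2, Cops5, the gene that rose at 5 days, chosen after its values were seen, did not pass (0.59, limma adjusted p = 0.0956).

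Most reported AP-1 target genes were higher in co-culture, and a link of their levels to those of any subunit was not tested. Leaving out Fosl1 and Jun, 20 of 32 tested targets rose and 1 fell at 3 days. At 5 days 22 rose and 2 fell (21 and 2 without 5-day replicate 2). Of all tested genes 10.6% rose and 9.37% fell at 3 days, and 12.6% rose and 11.4% fell at 5 days. The median log2 fold change of the targets was 1.18 and 1.46, beside 0.00 and -0.01 over all tested genes. Each of the 34 tested targets reached a monoculture mean of 5 normalised counts. Mmp9 (gelatinase B) rose by a log2 fold change of 6.25 at 3 days and 4.81 at 5 days, Lif, a cytokine of the IL6 family, by 2.39 and 1.69, and Hbegf, an EGF-family growth factor gene, by 1.83 and 2.595. Plau, the urokinase gene, which was chosen after its values were seen, as was the metallothionein gene Mt1 in the plot of the targets, did not pass at 3 days (-0.71, limma adjusted p = 0.209) and fell at 5 days (-1.27, adjusted p = 0.0234). Cxcl1, a neutrophil chemokine gene, had 1881 ± 962 at 3 days and fell to 383.0 ± 138.7 at 5 days, against 1488 ± 537 in monoculture. Vim, the mesenchymal intermediate filament gene, averaged 4803 at 3 days and rose to 11040 at 5 days, against 5218. Many of these genes also answer to other factors, and the list was chosen with earlier results of these data known.

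**Figure D4:**
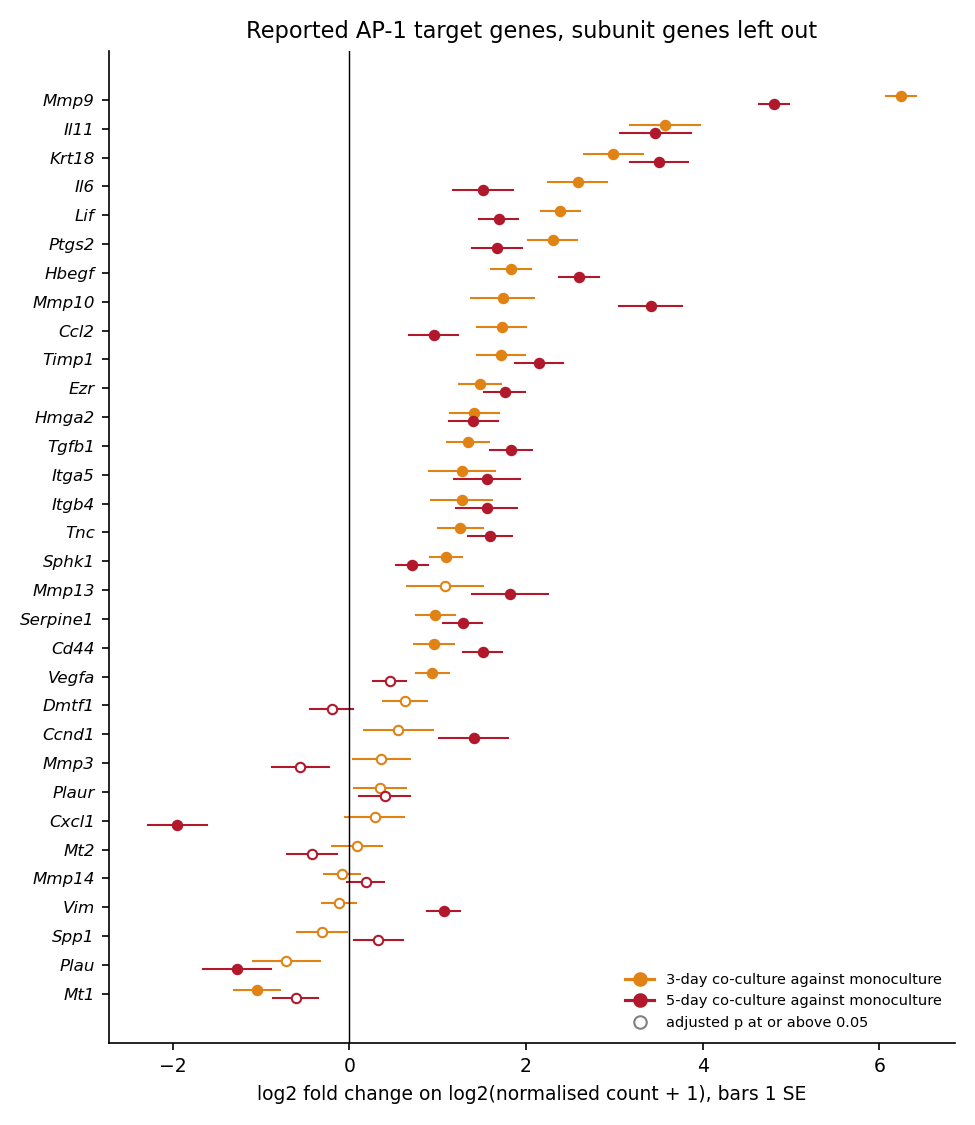
Log2 fold changes (x axis, on the log2(normalised count + 1) scale, bars 1 SE) of the 32 tested reported AP-1 targets other than subunits, in 3-day and in 5-day co-culture against monoculture; filled points passed limma at an adjusted p under 0.05. Most points lie to the right of 0, with Mmp9 farthest out at 6.25, and Mt1 (3 days), Plau and Cxcl1 (5 days) are the filled points to the left.

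Libraries of the co-cultures also carried RNA of epithelial markers, which, like Fosl1, Jun and most AP-1 targets, was higher there than in monoculture. Of 28 listed markers 22 were among the deposited genes, and they summed to 1202 to 1391 normalised counts per library in 3-day co-culture and 1173 to 1617 in 5-day co-culture, against 71.6 to 118.0 in monoculture. Of 19 tested, 16 rose at each time (15 at 5 days without 5-day replicate 2), beside 10.6% and 12.6% of all tested genes. As 5 of the 19 reached a monoculture mean of 5, most had passed the filter through the co-cultures and had to differ. Wfdc2 averaged 320.1 and 441.4, against 3.0, and Krt18, which is also on the AP-1 target list, 197.5 and 287.1, against 27.5. Epcam, chosen after its values were seen, was at 20.0 and 18.9, against 0.167, and Cldn3, Grhl2 and Elf3 were at 0 in every monoculture. The part of these markers in the rises of Fosl1 and Jun was not tested. For replicates 1, 2 and 3 the marker sums were 1313, 1202 and 1391 at 3 days and 1329, 1173 and 1617 at 5 days. In the same order Fosl1 had 250.8, 258.3 and 335.3 at 3 days and 201.3, 221.7 and 258.4 at 5 days. Jun had 352.0, 515.8 and 409.0 at 3 days and 299.2, 307.4 and 297.1 at 5 days.

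Some listed markers of further cell types were among the deposited genes. Others were not, among them Ptprc, Itgam, Pecam1, Cdh5, Adipoq, Plin1 and Rgs5, chosen after the gene names were seen. The presence of these cell types was not tested. Markers of macrophages and other leukocytes (8 of 15 among the deposited genes, Lyz2 and Cd68 highest) summed to 127.9 to 377.3 at 3 days and 73.5 to 161.2 at 5 days, against 99.6 to 291.4 in monoculture. Endothelial markers (3 of 10, Esam and Kdr highest) summed to 20.8 to 31.5 and 11.7 to 21.2, against 9.1 to 19.2. Adipocyte markers (3 of 9, Pnpla2 and Fabp4 highest) summed to 86.4 to 112.7 and 65.2 to 97.3, against 179.5 to 230.3. Of these, Fabp4 averaged 14.4 and 12.4, against 125.8, while Pnpla2 averaged 75.8 and 58.1, against 65.9. Lipe, chosen after its values were seen, averaged 12.3 and 13.0, against 21.2. Neither Pnpla2 (limma adjusted p = 0.557 and 0.554) nor Lipe (0.177 and 0.169) passed. Pericyte and smooth muscle markers (9 of 10, Tagln and Cnn1 highest) summed to 4256 to 8944 and 2287 to 2980, against 2820 to 4287.

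FOS and JUN genes are known to rise when tissue or cultures are broken up into single cells, and all groups were dissociated and sorted. Of 28 tested genes reported to rise on dissociation, subunits left out, 2 rose and 13 fell at 3 days. At 5 days 4 rose and 11 fell. Of all tested genes 10.6% rose and 9.37% fell at 3 days, and 12.6% rose and 11.4% fell at 5 days. The median log2 fold change of the list was -0.62 and -0.49, beside 0.00 and -0.01 over all tested genes. Nr4a1, an orphan nuclear receptor gene of the immediate early class, fell to 908.0 ± 164.5 and 429.0 ± 91.5, against 2585 ± 269 in monoculture. Socs3, a feedback inhibitor of cytokine receptors, fell to 104.6 and 65.7, against 358.8, and Ier2, an immediate early gene, to 398.6 and 186.3, against 835.4. Those that rose were Atf3 and Ier3 at 3 days, and Klf6, Rhob, Egr2 and Hspe1 at 5 days, where all but Atf3 were chosen after their values were seen. Egr2 (0.80, limma adjusted p = 0.112) and Hspe1 (0.47, limma adjusted p = 0.0906) did not pass without 5-day replicate 2. The part of dissociation in the levels of the subunits was not tested.

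The genes whose pattern over the 9 libraries was most like that of a subunit were named by Pearson's r of the log2 values among 8856 tested genes with a mean of at least 10. For Fos they were Tspan4 (r = 0.993), Fmod (0.989) and Gpc4 (0.987), and for Fosb Hdac7 (0.987), Per1 (0.981) and Fmod (0.974). For Fosl2 they were Col3a1 (0.989), Apoe (0.982) and Abi3bp (0.982), and for Junb Igfbp3 (0.981), Sfrp2 (0.975) and Ephx1 (0.968). All of these were lower in co-culture, for example Tspan4 with means of 408.2 at 3 days and 327.8 at 5 days, against 1447 in monoculture. For Fosl1 the closest were Cnot8 (0.983), Cptp (0.98) and Mid1ip1 (0.975), and for Jun Rhoj (0.988), Inpp5b (0.968) and Procr (0.959), all higher in co-culture, for example Rhoj with 385.1 and 276.2, against 198.4. The points share libraries and group differences, and with 9 points and 8856 genes searched high values of r arise readily.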

How the data were processed

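RNA of sorted mammary fibroblasts was measured in 9 libraries, 3 per group. The deposited values carry a signal of gene counts scaled between libraries by the authors, and the scaling method is not given in the sources used here. Reads were handled with bcl2fastq, STAR 2.4.2a and HTSeq on mm10, per the submitters' processing notes. The strand setting and annotation of the counting are not given in the sources used here. The low values are whole multiples of what 1 read is worth. Among values above 0, the highest left out, 99.96% to 100.0% per library lay within 0.051 normalised counts of such a multiple. This gave depths of 1048471 to 3567326 reads. Among the 11931 names, 18 had been turned into dates.

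Groups came from the labels and columns were matched by name. The 5-day co-culture column numbered 2 was placed there because the others account for every other sample. The filter on low values asked for 5 normalised counts or more in 3 or more libraries and kept 10639 of 11931 genes, leaving out 1292. limma 3.58.1 with trend, in R 4.3.3, was fitted to log2(value + 1) over all 9 libraries with 1 mean per group. Tests were two-sided with Benjamini-Hochberg adjustment over all tested genes and a threshold of 0.05, and the pipeline was tested on simulated data. Fold changes on this scale understate those of low genes. Single values were compared with exact permutation tests. The recovered reads were tested with edgeR 4.0.16 (quasi-likelihood, calling 2239, 2736 and 677 genes at 3 days, 5 days and between them) and DESeq2 1.42.0 as alternatives. Other pseudocounts, filters, scalings, a replicate block and leaving out each library were also tried.

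Members and gene lists were chosen with earlier results of these data known. Besides the 7 subunits, up to 3 called genes per list and comparison were eligible for naming by smallest adjusted p (mean of at least 10), with the 2 highest genes and the defining genes at 0 of each marker list, and the 3 genes most correlated with each called subunit. Genes outside this rule are said to be so. Positions are from GENCODE M21 and promoters from RefSeq.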

Additional observations from a re-analysis of the deposited data

Results flagged for a closer look

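Fosb differed between the co-culture times: its effect against the same monocultures was larger at 5 days (log2 fold change -2.53) than at 3 days (-1.69). The test of that difference, 5-day against 3-day co-culture, gave a log2 fold change of -0.84 (limma adjusted p = 0.033), with all 3 libraries at 5 days below all 3 at 3 days. The call was lost without 3-day replicate 1 (limma adjusted p = 0.0916) or 2 (0.144) and without 5-day replicate 1 (0.0693) or 2 (0.134), so the difference is not established beyond these libraries. The groups of 3 libraries are too small to be searched for single libraries that stand apart.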

How the results depend on the processing

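Of 21 fold changes of the subunits, 14 kept their direction and their side of the threshold under all 20 alternatives, and the 13 that were called kept their sign under each. The weakest call was Fosl1 at 5 days. It was lost under median-of-ratios rescaling (0.52, limma adjusted p = 0.0535), TMM rescaling (0.52, 0.0543), quantile normalization (0.49, 0.0807) and edgeR's quasi-likelihood test on the recovered reads (0.52, 0.0552), and the cause was not tested. Leaving out 1 library gave 0.44 to 0.65 for it, with the call lost without 3-day replicate 2, any 5-day replicate or monoculture replicate 1 or 2. The same gave 0.51 to 0.82 for Jun at 5 days, -0.95 to -0.65 for Fosl2 at 3 days, and between the co-cultures -1.03 to -0.65 for Fosb and -0.94 to -0.40 for Fos. Jund ran from -0.06 to 0.43 at 5 days, reversed without monoculture replicate 2 (-0.056) or 3 (-0.01), and from -0.28 to 0.07 between the co-cultures, reversed without 3-day replicate 2 (0.072). Genes called between the co-cultures numbered 323 to 739, against 735 with all libraries, with 323 without 3-day replicate 2 and 442, 426 and 458 without 5-day replicates 1, 2 and 3; fewer samples entered these fits. Leaving out 5-day replicate 2 was an alternative for the gene lists that was chosen after seeing the data. Without it limma called 0 of 31 kinase genes between the co-cultures (2 with it, 6 at an unadjusted p under 0.05 without it). Of the 9 tested genes listed around the Fos promoter it called 0 (1 with that library, 3 unadjusted without it). Rescaling moved the median of all genes by less than 0.1.

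Whether the repetition numbers pair the samples was not settled. Deviations from the group means correlated at -0.114 to 0.233 between same-numbered libraries (9 pairs) and at -0.298 to 0.323 between others (18 pairs). These ranges overlap, and groups of 3 libraries leave too few deviations to decide. With the replicate block 2219, 2663 and 827 genes were called at 3 days, 5 days and between the co-cultures, and no subunit call changed, Fosl1 at 5 days keeping 0.54 (limma adjusted p = 0.0306). The lowest subunit count was 45 reads in a library, and 3 libraries per group limit what could be called.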
